A study of Mus musculus with 8 samples.

Results

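The 9 genes described here encode the core of polyamine metabolism: Odc1, Amd1, Srm and Sms for synthesis, Smox and Sat1 for catabolism, and Oaz1, Oaz2 and Azin1 for the control of ornithine decarboxylase. They were taken by symbol from a table of 16686 genes with counts, and all 9 were found. RNA had been sequenced from the tibialis anterior, a fast-twitch leg muscle, of 4 WT and 4 C2-/- male mice on the FVBN background, all labelled 22 months old and otherwise untreated. C2-/- mice lack Mybpc2, the gene of fast myosin binding protein-C, in every tissue, since much of the gene was replaced by a Neo cassette in the germline. A growth text in the labels gives a younger age, while the paper describes these muscles as aged. Each library came from 1 mouse, and the labels do not say whether the genotypes were littermates.

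Polyamines are small, positively charged molecules that bind RNA, DNA and chromatin and are needed for growth and translation. Odc1 makes putrescine from ornithine, Amd1 supplies the aminopropyl groups, and Srm and Sms use these to make spermidine and then spermine. Smox turns spermine back into spermidine with release of hydrogen peroxide, and Sat1 acetylates polyamines for export or further breakdown. Antizymes, encoded by Oaz1 and Oaz2, bind Odc1 protein and send it to the proteasome, and Azin1, a relative of Odc1 without its activity, sequesters the antizymes. In skeletal muscle, Smox is known to fall in atrophying muscle, and several polyamine genes are known targets of androgens.

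The knockout label was checked first. Mybpc2 stood at 4964 to 7392 CPM (counts scaled to a common library size with TMM factors) in the 4 WT mice. It stood at 4.35, 4.02 and 3.85 CPM in C2-/- replicates 1, 2 and 4 and at 38.3 CPM in C2-/- replicate 3, so the genotypes were far apart in every mouse, with a higher remnant in 1 knockout library. Total counts lay between 25425993 and 29747692 per mouse. As a check of the muscle label, 8 fast fibre genes summed to 133492 to 191532 CPM in WT and 139466 to 164995 CPM in C2-/-. The 8 genes of the slow fibre list summed to 240 to 591 CPM in WT and 223 to 493 CPM in C2-/-. That list includes Myh2, the myosin of type IIa fibres, which the paper counts as fast-twitch. All values are RNA levels in whole muscle, in which fewer cells of a type and less RNA per cell cannot be told apart.

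A pair of libraries often held the extreme values of these genes and is followed through the results. Of the 9 genes, 5 had their lowest CPM of all 8 mice and 3 their highest in WT replicate 2, and 4 had their highest in C2-/- replicate 3. The share of all genes with an extreme value in these mice was not computed. Wider pathway genes such as Mat2a and Eif5a also had extreme values in WT replicate 2, so these were not confined to the 9 genes. Whether extreme values were more frequent among the 9 than among other genes is therefore not known. WT replicate 2 also held the highest Cdkn1a, a cell cycle inhibitor that rises in denervated or unused muscle, at 405 CPM against 22.6 to 39.7 CPM in the other WT mice. Its Myog stood at 16.7 CPM and its Chrna1 at 60.3 CPM, both genes of denervated muscle and both the highest of the 8 mice. Their part in the results was not tested, and values are given with and without these libraries.

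Sequences are shown where they explain what an RNA level can and cannot report. Antizyme is made only when ribosomes slip forward by a single base at a stop codon, a step that polyamines promote and that leaves the RNA level untouched. The Oaz1 site lies on the forward strand at chr10:80828280-80828309 and the Oaz2 site on the forward strand at chr9:65686257-65686286, both in exons of GRCm38. The stop is in capitals in these 30 bases from GENCODE vM21 transcripts, in which 28 positions were identical between the genes.
Oaz1: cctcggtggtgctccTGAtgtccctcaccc
Oaz2: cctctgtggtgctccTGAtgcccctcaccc

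Promoter sequence is shown for Smox and Amd1, which had their highest and lowest values in the same mice, and for Odc1, which was highest in WT replicate 2. It comes from the stretch of 250 bases before the start that the RefSeq promoter table (GRCm38.p6) lists for each gene. Some transcripts start further upstream, so that 140 bases of the Smox stretch and 79 of the Odc1 stretch lie in annotated exons, and the printed sequence is the longest run outside exons. The Smox run of 110 bases is on the forward strand at chr2:131491654-131491763, the Amd1 run of 250 bases on the reverse strand at chr10:40302189-40302438 and the Odc1 run of 171 bases on the forward strand at chr12:17544623-17544793. Each reads 5′ to 3′ on the gene's own strand, and capitals mark each match to the GC box letters GGGCGG on either strand (CCGCCC on the other).
Smox: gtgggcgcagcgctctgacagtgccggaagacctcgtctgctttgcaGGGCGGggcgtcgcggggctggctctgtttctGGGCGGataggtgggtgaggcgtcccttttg
Amd1: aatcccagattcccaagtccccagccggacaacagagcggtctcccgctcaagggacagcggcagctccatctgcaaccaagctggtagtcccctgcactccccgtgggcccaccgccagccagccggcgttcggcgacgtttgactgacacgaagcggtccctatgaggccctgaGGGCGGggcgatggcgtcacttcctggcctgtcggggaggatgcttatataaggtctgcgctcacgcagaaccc
Odc1: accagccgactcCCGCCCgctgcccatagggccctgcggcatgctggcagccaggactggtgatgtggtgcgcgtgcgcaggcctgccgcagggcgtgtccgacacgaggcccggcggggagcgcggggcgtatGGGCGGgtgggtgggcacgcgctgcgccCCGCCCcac

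Over the whole 250 bases, exons included, Smox had 6 GC boxes, Odc1 4 and Amd1 1, of which the printed runs hold 2, 3 and 1. At least 1 was present in 32.7% of 32851 promoter stretches of 250 bases, at least 4 in 4.09% and at least 6 in 0.886%. The E-box CACGTG, which reads the same on both strands, was present in 6.02% of all stretches and in none of these 3. Of the other genes, Sat1 had 2 GC boxes, Oaz2 had 3 and Oaz1 none, while Sms, with 2 listed starts, had 4 at 1 start and none at the other. The other start of Sms held 1 CACGTG. Srm and Azin1 were not listed in the promoter table.

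The comparison of C2-/- with WT asked which RNAs depend on fast myosin binding protein-C in aged muscle. None of the 9 genes passed an adjusted p of 0.05 in edgeR's quasi-likelihood test, in which 4 of 12542 tested genes, or 0.0319%, passed. At an unadjusted p under 0.05, 1 of the 9 genes passed, Smox, against 663 genes or 5.29% of all tested. In none of the 9 were the genotypes apart without overlap, while 424 genes or 3.38% of all tested had CPM values that did not overlap. The log2 fold change was above 0 for 6 of the 9 genes and below 0 for 3, with a median of 0.01 beside -0.02 over all tested genes. A single call among 9 genes is not read as a result about the group, and what follows describes each gene.

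**Figure D1:**
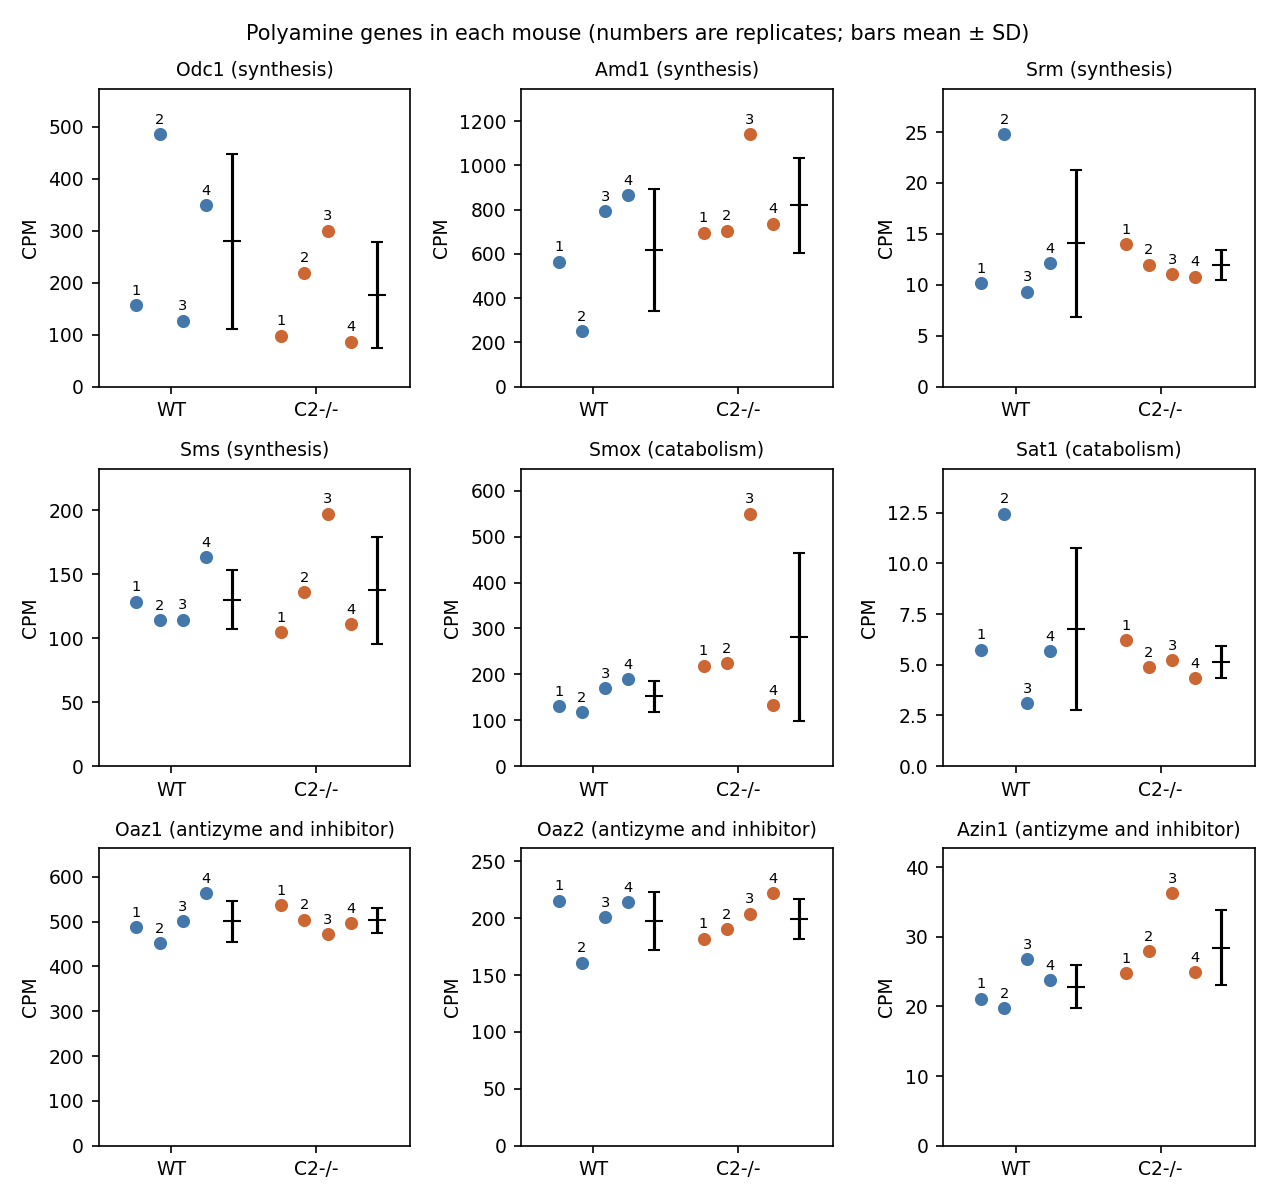
CPM of each gene in each of the 4 WT and 4 C2-/- mice, with the replicate number above each point and the mean ± SD at the right of each group. The Smox point of C2-/- replicate 3 sits at 549 CPM, with the next C2-/- mouse at 224 CPM. The Amd1 point of WT replicate 2 sits at 250 CPM, with the next WT mouse at 565 CPM. Oaz1 stays between 452 and 563 CPM in all mice.

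Smox (GeneID 228608, chr2:131491858-131525183), the spermine oxidase, showed the largest difference of the 9. It stood at 130, 118, 170 and 190 CPM in WT replicates 1 to 4 and at 219, 224, 549 and 133 CPM in C2-/- replicates 1 to 4. C2-/- replicates 1, 2 and 3 lay above every WT mouse, and C2-/- replicate 4 lay within the WT range. The means were 152 ± 33.7 CPM in WT and 281 ± 184 CPM in C2-/- (SD, n = 4 each). The log2 fold change was 0.89 (SE 0.37, 95% interval 0.06 to 1.71, edgeR unadjusted p = 0.0376, adjusted p = 0.918), or 1.85-fold. A two-sided exact permutation test of log2 CPM gave p = 0.143, where 4 mice against 4 allow no p under 0.0286.

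The size of the Smox difference rested on C2-/- replicate 3. Without that mouse the log2 fold change was 0.33 (edgeR unadjusted p = 0.175), and without both that mouse and WT replicate 2 it was 0.24 (edgeR unadjusted p = 0.292). Without C2-/- replicate 4, the knockout mouse in the WT range, it was 1.12 (edgeR unadjusted p = 0.0077). The direction was kept in all 16 alternatives, but the unadjusted p was under 0.05 in 9 of them. Limma-voom, the method that the study names, gave 0.71 with an unadjusted p of 0.0732.

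Sat1 (GeneID 20229, chrX:155213126-155216449), the acetyltransferase that tags polyamines for export, was the least abundant of the 9 genes. It stood at 5.75, 12.4, 3.10 and 5.68 CPM in WT and at 6.21, 4.87, 5.21 and 4.33 CPM in C2-/-, which came from 83 to 341 reads per mouse. WT replicate 2 held the highest and WT replicate 3 the lowest value, so all C2-/- mice lay inside the WT range. On the log2 scale C2-/- differed from WT by -0.39 (SE 0.35, edgeR unadjusted p = 0.293, adjusted p = 0.968), and without WT replicate 2 it was 0.10. The catabolic pair therefore held 1 gene above and 1 below 0 on the log2 scale.

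Odc1 (GeneID 18263, chr12:17544808-17551502), the ornithine decarboxylase that opens the pathway, was the most variable of the 9 genes. It stood at 156, 485, 127 and 349 CPM in WT and at 98.0, 219, 299.7 and 86.7 CPM in C2-/-. The 8 mice spanned a 5.59-fold range, with the highest value in WT replicate 2, the lowest in C2-/- replicate 4 and wide overlap of the genotypes. The within-genotype SD of log2 CPM was 0.90, larger than in 96.7% of tested genes, for which the median SD was 0.26. C2-/- differed from WT by a log2 fold change of -0.67 (SE 0.49, 95% interval -1.75 to 0.42, edgeR unadjusted p = 0.201, adjusted p = 0.968). It was -0.25 without WT replicate 2 and -1.05 without C2-/- replicate 3.

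Immediate early genes, which rise within minutes of a stimulus, varied along with Odc1. The 16 listed genes, all present in the table, summed to 621, 1627, 868 and 2868 CPM in WT and to 524, 2036, 564 and 537 CPM in C2-/-. The 3 mice with the highest sums, WT replicates 2 and 4 and C2-/- replicate 2, held 3 of the 4 highest Odc1 values, while C2-/- replicate 3 had high Odc1 and a low sum. Over the 8 mice, Pearson's r between log2 CPM of Odc1 and the log2 sum was 0.68 and Spearman's rho 0.71, and for Smox they were -0.17 and -0.07. The part of these genes in the Odc1 values was not tested.

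Amd1 (GeneID 11702, chr10:40287458-40302188), the S-adenosylmethionine decarboxylase, had the highest mean CPM of the 9 genes. It stood at 565, 250, 793 and 864 CPM in WT and at 695, 705, 1140 and 737 CPM in C2-/-. The lowest value belonged to WT replicate 2 and the highest to C2-/- replicate 3, and the other 6 mice lay between 565 and 864 CPM. The log2 fold change was 0.41 (SE 0.33, 95% interval -0.33 to 1.14, edgeR unadjusted p = 0.247, adjusted p = 0.968). It was 0.15 without WT replicate 2 and 0.20 without C2-/- replicate 3, and with both left out it fell to -0.05.

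Reads of Amd1 are uncertain because the genome holds a near-identical copy, Amd2. Their transcripts were 99.6% identical over 3202 of 3204 bases, and Amd2 stood at 47.3 to 165 CPM in the table, with its lowest value in WT replicate 2 and its highest in C2-/- replicate 3, as for Amd1. With the counts of both genes summed, the log2 fold change was 0.40 (edgeR unadjusted p = 0.248). The table gives Amd1 and Azin1 on the forward strand and over a longer interval than the reference annotation, which has both on the reverse strand, so reference coordinates are given here. Whether counting used the strand is not given in the sources used here.

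Srm (GeneID 20810, chr4:148591513-148594619), the spermidine synthase, stood at 10.1, 24.8, 9.34 and 12.1 CPM in WT and at 14.01, 11.98, 11.03 and 10.78 CPM in C2-/-. WT replicate 2 was above all other mice by more than 10 CPM, and the remaining 7 lay close together. For Srm the log2 fold change was -0.24 (SE 0.28, edgeR unadjusted p = 0.421, adjusted p = 0.976), and it was 0.19 without WT replicate 2. Sms (GeneID 20603, chrX:157443851-157492287), the spermine synthase whose product Smox consumes, stood at 129, 114, 114 and 164 CPM in WT and at 105, 136, 197 and 111 CPM in C2-/-. The highest value again belonged to C2-/- replicate 3. For Sms the log2 fold change was 0.08 (SE 0.21, 95% interval -0.38 to 0.54, edgeR unadjusted p = 0.716), and it was -0.15 without C2-/- replicate 3. The table also lists a processed copy, Sms-ps, at up to 8.80 CPM and identical over 1101 bases, and summing the counts gave a log2 fold change of 0.06 for Sms.

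The 4 synthesis genes thus held 2 with a log2 fold change above 0 and 2 below, and none passed the unadjusted test. Processed pseudogenes similar to Odc1 numbered 13 in the annotation, none of them in the table.

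Oaz1 (GeneID 18245, chr10:80826656-80829290) was nearly level across mice. It stood at 487, 452, 501 and 563 CPM in WT and at 537, 504, 472 and 496 CPM in C2-/-. Its within-genotype SD of log2 CPM was 0.11, and only 5.67% of tested genes had a smaller one. The log2 fold change was 0.0053 (SE 0.11), with a 95% interval of -0.23 to 0.24.

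Oaz2 (GeneID 18247, chr9:65676548-65690300) was similarly steady. It stood at 215, 161, 201 and 214 CPM in WT and at 182, 190, 204 and 222 CPM in C2-/-, with its lowest value in WT replicate 2. Its log2 fold change was 0.01 (SE 0.12, 95% interval -0.26 to 0.29, edgeR unadjusted p = 0.927). Antizyme protein also depends on slippage at the printed stop, which was not measured, so these levels alone do not give its amount.

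Azin1 (GeneID 54375, chr15:38487430-38519294), the antizyme inhibitor, had the second smallest p of the 9 genes. It stood at 21.1, 19.7, 26.7 and 23.7 CPM in WT and at 24.8, 27.9, 36.2 and 24.9 CPM in C2-/-. Each C2-/- mouse was above 3 of the 4 WT mice, and WT replicate 3 lay within the C2-/- range. Its log2 fold change was 0.32 (SE 0.15, 95% interval -0.03 to 0.66, edgeR unadjusted p = 0.0667, adjusted p = 0.968), and an exact permutation test gave p = 0.114. Without C2-/- replicate 3 it was 0.18 (edgeR unadjusted p = 0.227).

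**Figure D2:**
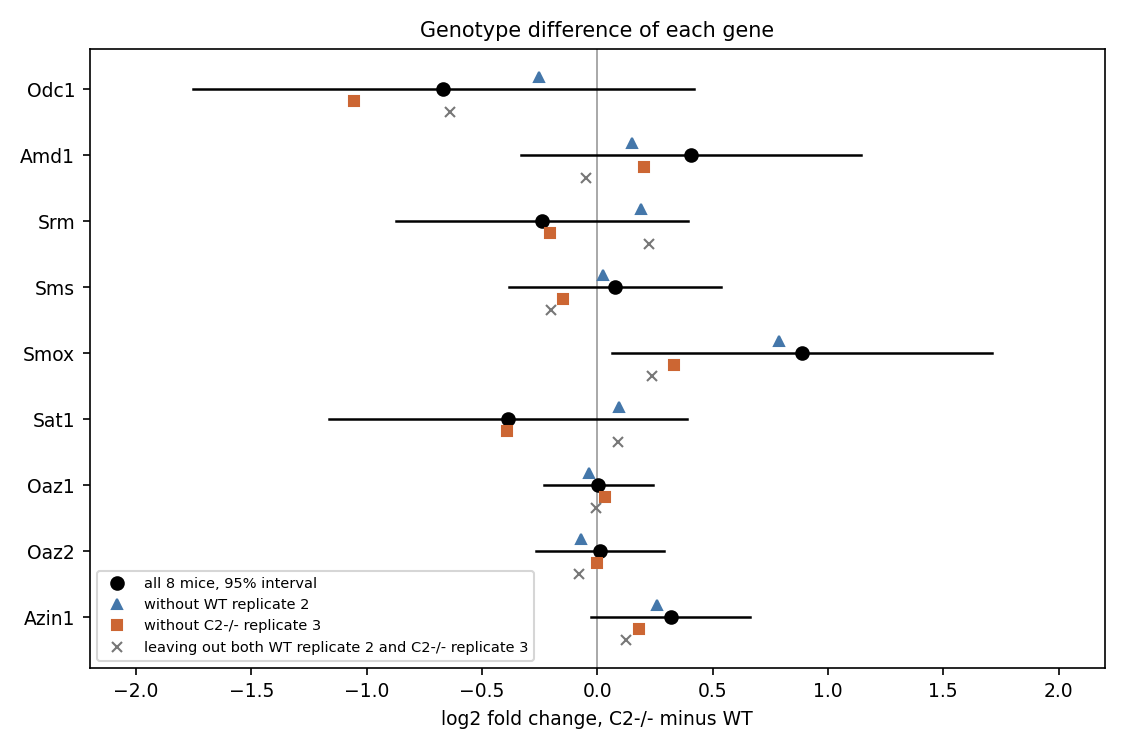
Log2 fold change of C2-/- over WT for each gene, with the 95% interval over all 8 mice as a line and the values without WT replicate 2, without C2-/- replicate 3 and without both as separate symbols. The Smox value moves from 0.89 to 0.33 without C2-/- replicate 3, and the Srm and Sat1 values cross 0 without WT replicate 2.

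Levels between genes were compared per length, with the TPM values of the table over all 8 mice. Oaz1 was the highest at 908 ± 89.8 TPM (SD, n = 8), followed by Amd1 at 420 ± 154 TPM. Oaz2, Smox and Odc1 followed at 204 ± 27.7, 202 ± 131 and 163 ± 92.0 TPM, and their ranges overlapped. Oaz2 was above Smox in 5 of 8 mice and Smox above Odc1 in 6 of 8, and the order split by genotype. Oaz2 was above Smox in 4 of 4 WT but 1 of 4 C2-/- mice, and Smox was above Odc1 in 2 of 4 WT and 4 of 4 C2-/- mice. Sms stood at 72.1 ± 17.7 TPM, below Odc1 in all 8 mice.

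Srm at 18.5 ± 5.76 TPM, Azin1 at 11.2 ± 2.38 TPM and Sat1 at 9.43 ± 3.70 TPM formed the low end. Every Sms value was above every Srm value, and Sms exceeded Srm 3.89-fold in the mean. Srm was above Azin1 in all 8 mice and Azin1 above Sat1 in 7 of 8, although the ranges of neighbours overlapped. With CPM divided by the longest reference transcript in place of TPM, Smox and Odc1 exchanged ranks 4 and 5 and the other 7 genes kept theirs. Sat1 RNA was thus well below Smox RNA, with 65.4% of table genes under the mean TPM of Sat1 and 96.8% under that of Smox.

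**Figure D3:**
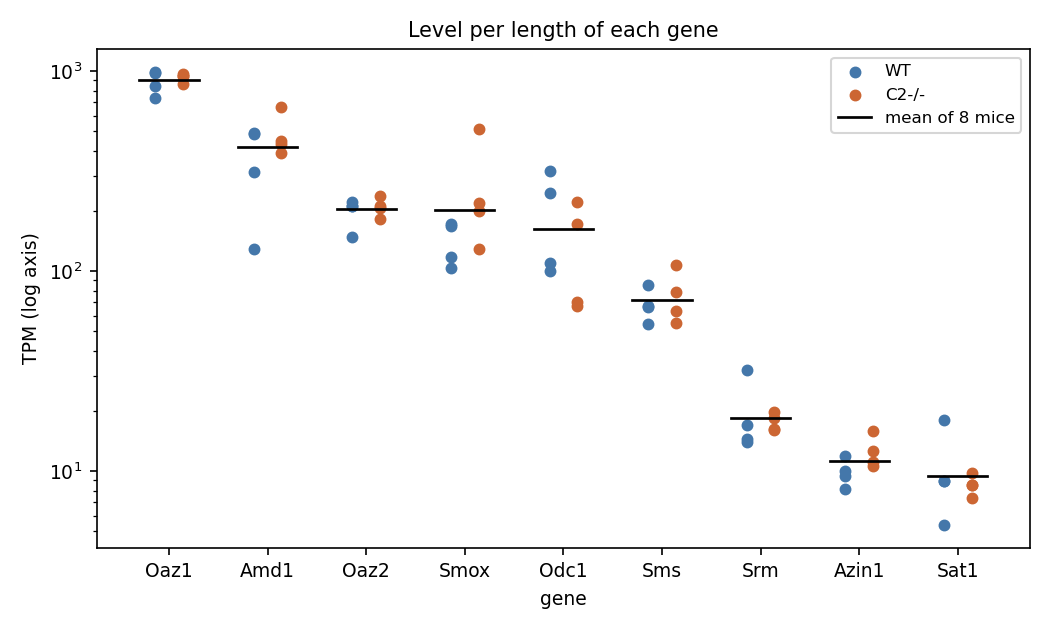
TPM of each gene on a log axis, with a point per mouse, WT at the left and C2-/- at the right of each position, and a line at the mean of 8 mice. The means run from 908 TPM for Oaz1 to 9.43 TPM for Sat1, and Oaz2, Smox and Odc1 overlap near 200 TPM.

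Some of the 9 genes varied together from mouse to mouse. Smox and Azin1 had a Pearson's r of 0.91 and a Spearman's rho of 0.81 over the log2 CPM of 8 mice, and r was 0.87 after subtraction of each genotype's mean. Without WT replicate 2 and C2-/- replicate 3, which were also the mice farthest from the Smox median, r was 0.60 over 6 mice. Amd1 and Azin1 had an r of 0.80, which was 0.52 over those 6 mice. Smox and Sms had an r of 0.74, which was 0.16 over those 6 mice and thus rested on the libraries left out.

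Srm and Sat1 had an r of 0.92 and a rho of 0.74, and r was 0.74 without WT replicate 2 and C2-/- replicate 3. Amd1 ran against both, with r of -0.82 for Srm and -0.78 for Sat1. The first became 0.10 and the second -0.36 over the 6 other mice. Srm and Oaz2 also ran against each other, with an r of -0.86 over all 8 mice and of -0.57 over the 6. Smox and Oaz2 had an r of 0.11 over all 8 mice and of -0.84 over the 6. Odc1 and Sms had an r of 0.56 over all 8 mice and of 0.97 over the 6. These are descriptions of 8 libraries that share depth and composition, among 36 pairs computed.

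**Figure D4:**
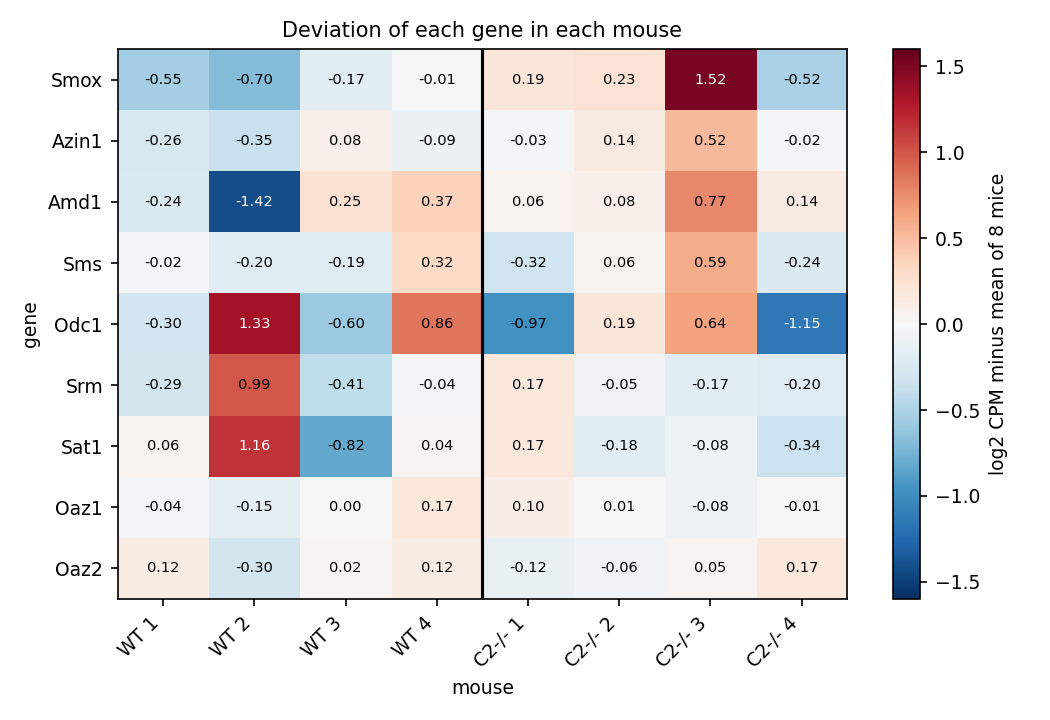
Log2 CPM of each gene in each mouse minus its mean over the 8 mice, in color and as a number. C2-/- replicate 3 is at 1.52 for Smox and 0.77 for Amd1, and WT replicate 2 is at -1.42 for Amd1 and 1.33 for Odc1, while Oaz1 and Oaz2 stay within 0.30 of their means.

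Of the 12542 tested genes, those whose log2 CPM ran closest to Smox over the 8 mice were Zfp65 with an r of 0.95, Cd55 with 0.94 and Nanp with 0.93. As the highest of so many values over 8 mice, these are high in part through selection. Without WT replicate 2 and C2-/- replicate 3 these became 0.78, 0.66 and 0.85. Closest to Azin1 were Ap4e1 with 0.96, Rell1 with 0.94 and Tnxb with 0.94, which became 0.86, 0.89 and 0.89. Mat2a, which makes the S-adenosylmethionine that Amd1 consumes, was looked up by name and not found by this search. Mat2a had an r of 0.92 with Smox and of 0.87 with Azin1. It stood at 158 CPM in C2-/- replicate 3 and at 66.2 CPM in WT replicate 2, its highest and lowest values, and without these mice r was 0.69 with Smox and 0.27 with Azin1.

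The wider pathway was read from 6 lists with 48 genes, of which 45 were in the table and 35 were tested. Of these 35, 1 passed an unadjusted p of 0.05, Ahcy, and 34 did not, with a median log2 fold change of -0.03 beside -0.02 over all tested genes. Values were above 0 for 14 and below 0 for 21. Ahcy, which clears S-adenosylhomocysteine, stood at 0.598 to 1.62 CPM in WT and at 21.3 to 44.2 CPM in C2-/-, with a log2 fold change of 4.41 (SE 0.35, edgeR adjusted p = 0.000763). Its transcript was 99.7% identical over 2083 bases to that of Gm4737, and with both genes summed the values were 48.1 to 53.2 CPM in WT and 51.4 to 61.3 CPM in C2-/-. The summed log2 fold change was 0.12 (edgeR unadjusted p = 0.275), far below that of Ahcy alone.

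Ornithine and arginine supply was represented by 3 tested genes of 7, all with log2 fold changes below 0 and none past the test. Oat, which forms or uses ornithine in mitochondria, stood at 124 to 215 CPM in WT and 111 to 127 CPM in C2-/- (log2 fold change -0.34, edgeR unadjusted p = 0.0717). Slc7a2, a carrier of cationic amino acids, stood at 212 CPM in WT replicate 2 and at 22.9 to 69.2 CPM in the other 7 mice. The arginases Arg1 and Arg2 and the ornithine carbamoyltransferase Otc did not pass the filter on low counts, and none exceeded 0.0771 CPM in any mouse, below the level of 3 counts in each library.

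Methionine salvage and S-adenosylmethionine supply had 12 tested genes of 14, 5 above and 7 below 0. Got1, an aminotransferase and the most highly counted of these, stood at 267 to 425 CPM in WT and 266 to 424 CPM in C2-/- (log2 fold change -0.17). Mat2a stood at 66.2 to 117 CPM in WT and 85.4 to 158 CPM in C2-/- (log2 fold change 0.28, edgeR unadjusted p = 0.230). Hypusination, the use of spermidine to modify the translation factor eIF5A, had 4 tested genes of 4. Eif5a stood at 369 to 531 CPM in WT and 373 to 424 CPM in C2-/- (log2 fold change -0.10), with its highest value in WT replicate 2, and Dohh at 39.0 to 48.4 and 32.6 to 44.4 CPM (log2 fold change -0.15).

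Polyamine transport had 6 tested genes of 10, 2 above and 4 below 0. Cav1, a coat protein of caveolae, stood at 113 to 186 CPM in WT and 132 to 163 CPM in C2-/-, and Atp13a2, a lysosomal polyamine exporter, at 29.0 to 47.4 and 25.8 to 44.4 CPM (log2 fold change -0.27). Aldehyde and amine oxidation had 6 tested genes of 7, 5 above and 1 below 0. The exception was Aldh1a1, at 139 to 215 CPM in WT and 126 to 140 CPM in C2-/- (log2 fold change -0.30, edgeR unadjusted p = 0.0610), while Aldh2 stood at 71.8 to 112 and 82.8 to 112 CPM. Of the remaining core genes, 4 of 6 were tested, and apart from Amd2 the highest was Paox, the oxidase of acetylated polyamines, at 3.68 to 5.57 CPM in WT and 3.03 to 5.62 CPM in C2-/-.

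Other cell types and states were read from 12 lists with 92 genes, all of them in the table and none at 0 in every mouse. Of all tested genes taken singly, 3.38% did not overlap, and no such share was computed for sums of genes. The summed CPM overlapped between the genotypes for 11 of the 12 lists. The exception was the list of 7 fibroblast genes, at 302 to 452 CPM in WT and 499 to 675 CPM in C2-/-, of which 4 had an unadjusted p under 0.05, all higher in C2-/-, beside 5.29% of all tested genes. Over all 12 lists, 10 of 88 tested genes had an unadjusted p under 0.05, and none passed the adjusted test. Outside the fibroblast list these were 2 genes of the slow fibre list and 1 denervation gene, all lower in C2-/-, 1 tendon gene, higher, and 2 androgen axis genes, 1 in each direction. The lower androgen axis gene was Cdkn1a (edgeR unadjusted p = 0.0369, exact permutation test p = 0.543). Its WT mean rested on WT replicate 2, at 405 CPM. The highest fibroblast sum belonged to C2-/- replicate 3, the mouse with the highest Smox and Azin1, and the lowest to WT replicate 2. The part of fibroblast RNA in these values was not tested. Macrophage genes summed to 29.0 to 60.1 CPM in WT and 41.9 to 73.0 CPM in C2-/-, again highest in C2-/- replicate 3. The 8 genes of denervation and the neuromuscular junction reached 213 CPM in WT replicate 2. The other 7 mice stood at 91.5 to 133 CPM. In WT replicate 2 the 5 genes of the androgen receptor axis reached 645 CPM, against 88.1 to 166 CPM in the other 7 mice. Of these genes, Cdkn1a stood at 405 CPM and Fkbp5 at 205 CPM in WT replicate 2, so the sum rested largely on them. Cdkn1a also rises in denervated or unused muscle, so the sum does not by itself show androgen action.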

How the data were processed

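RNA of the tibialis anterior of 4 WT and 4 C2-/- mice was sequenced, 1 library per mouse, and groups and replicate numbers follow the labels. The authors deposited expected counts per gene, which were not normalized, and TPM values. The paper's methods name HISAT, GRCm38.p6 and featureCounts, but 5.5% to 6.53% of the values in each library have decimals, so they are estimated counts and were rounded before the tests, although the test had been planned for whole counts. The labels' growth text gives a younger age than the age of 22 months used here.

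The 8 per-mouse FPKM columns, the group averages and the authors' own DESeq2 fold changes, p-values and q-values were not used. 1 of 16687 rows had no usable gene ID or counts, and 25 symbols were restored from gene IDs. Total counts lay between 25425993 and 29747692. Intervals and the level of 3 counts cover counting error and the spread between these mice only.

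The whole table was fitted with edgeR 4.0.16 in R 4.3.3 (quasi-likelihood test, TMM factors, default filter on low counts, Benjamini-Hochberg adjustment over 12542 genes), after the script had been tested on simulated data. CPM are TMM-scaled. For single genes, exact permutation tests (two-sided, scipy 1.17.1) were run on log2 CPM. Limma 3.58.1 with voom, DESeq2 1.42.0, other factors, other filters, a replicate block, each mouse left out and summed gene copies were the alternatives. Leaving out WT replicate 2 and C2-/- replicate 3 together was an alternative chosen after seeing the data.

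The members and all lists were chosen with earlier results of these data known. Named genes were the 9 members, every wider pathway gene with an unadjusted p under 0.05, the 1 or 2 with the highest CPM per list, the 3 genes most like each of the 2 members with the smallest p, and Mybpc2. Cdkn1a, Fkbp5, Myog, Chrna1, the arginases and Otc were named after their values had been seen. Copies were found with blastn 2.17.0 in GENCODE vM21. Promoters of 7 of the 9 genes were listed in RefSeq.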

Additional observations from a re-analysis of the deposited data

Results flagged for a closer look

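For the members, Mybpc2 and the named genes of the wider pathway, each genotype was examined for a mouse far from the other 3, by the gap to its nearest neighbour as a share of the group's range, against Dixon's limit at the 95% level. Of 46 groups examined, 7 exceeded it, where chance gives about 1 in 20. Among the members it was Amd1 in C2-/-, where replicate 3 stood at 1140 CPM and the next mouse at 737 CPM, a share of 0.905. Mybpc2 in C2-/- exceeded it with 0.985, since replicate 3 stood at 38.3 CPM. In WT replicate 2, Slc7a2 was high (0.877), Oat was high (0.859) and Atp13a2 was low (0.933). Ahcy exceeded the limit in WT with 0.867 through replicate 3 and in C2-/- with 0.868 through replicate 1, and its counts are shared with Gm4737. Smox in C2-/- did not exceed it, although replicate 3 decided the size of its difference.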

How the results depend on the processing

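No member passed an adjusted p of 0.05 under any alternative. Of 146 fold changes of the members under alternatives, 132 kept their direction and 14 did not, all of them with a mouse left out. The count of all genes called was 4, and it was 39 with DESeq2, 4 to 7 with each mouse left out, and 7 without both WT replicate 2 and C2-/- replicate 3; the cause was not tested. Leaving out WT replicate 2 alone gave 7. The count of members with an unadjusted p under 0.05 was 1 (Smox), 2 with upper-quartile factors, 0 with limma-voom, 0 with DESeq2, 0 to 2 with each mouse left out and 0 without both mice. It was 0 without WT replicate 1, WT replicate 2 or C2-/- replicate 3.

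With a mouse left out, the log2 fold change ran from 0.15 to 0.62 for Amd1, -0.38 to 0.19 for Srm, -0.15 to 0.22 for Sms, -0.62 to 0.096 for Sat1, -0.034 to 0.079 for Oaz1 and -0.069 to 0.064 for Oaz2. Without both mice it was -0.049 for Amd1, 0.22 for Srm, -0.20 for Sms, 0.091 for Sat1, -0.0052 for Oaz1 and -0.080 for Oaz2. Odc1, Smox and Azin1 kept their direction in all 16 alternatives each.

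Whether same-numbered mice were paired is not known. Their deviations correlated at -0.05 to 0.27, and only for WT replicate 1 was the same number the best match. Such correlations cannot settle the question, because paired mice need not have similar RNA levels. With the replicate block, 4 genes were called, and 1 member had an unadjusted p under 0.05, Azin1 in place of Smox. Under the block the log2 fold change was 0.31 for Azin1 (edgeR, unadjusted p = 0.0382) and 0.72 for Smox (edgeR, unadjusted p = 0.0521). With 83 to 341 reads per mouse, Sat1 was the least precisely counted member.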
